A study of Mus musculus with 6 samples.

Results

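The respiratory chain of Nestin-GFP-positive cells was read through the RNA of 77 subunit genes, 13 of them in the mitochondrial genome and 64 in the nucleus, out of 37991 gene rows in the count files. The members were chosen by symbol, with no measured value in the rule but with earlier results of these data known. They are the protein-coding genes of the mitochondrial genome, the Nduf genes of the a, b, c, s and v series, the Uqcr genes, Sdha to Sdhd, and the Cox4 to Cox8 genes without Cox4i2. Nuclear subunits of ATP synthase do not fall under that choice and are given separately. The cells came from dermis and attached subcutaneous fat of 3-day-old mice and were sorted for Nestin-GFP, a reporter that marks cells in which Nestin regulatory sequence is active. The mice of the 3 control libraries (Nes-GFP) carried the reporter alone. Those of the 3 mutant libraries (Nes-GFP;Nes-Cre;PDGFRα+/[S]D842V) also carried the Cre recombinase under Nestin control and 1 copy of the Pdgfra allele for the constitutively active receptor. What "[S]" stands for was not given in the sources used here. No control carried Nestin-Cre, so effects of the recombinase and of the allele cannot be told apart. In sorted bulk cells, a different mix of cell types and a different amount of RNA per cell cannot be told apart either.

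Oxidative phosphorylation passes electrons from NADH and succinate through complexes I to IV to oxygen, and the proton gradient so formed drives ATP synthase, complex V. Complexes I, III and IV mix subunits translated inside the organelle with subunits imported from the cytosol, while complex II is wholly nuclear. RNA of the mitochondrial genome is cut from long transcripts of the heavy and light strands, so its genes do not each have a promoter of their own. Nuclear subunit genes are dispersed over the chromosomes and are known targets of factors such as NRF1, GABPA (an ETS factor) and YY1.

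The 6 libraries held 11912469 to 18792939 reads counted in genes, and a count of 3, the limit that a count of 0 allows, lay between 0.16 and 0.252 CPM (counts scaled to a common library size) for counting error only. The labels give white adipose tissue as the source. Markers of fibroblasts summed to 1.04e+05 to 1.34e+05 CPM per library and those of white fat to 182 to 606 CPM, with Fabp4, a fatty acid carrier of fat cells, the most abundant of the latter. RNA of Pdgfra, whose allele the mutants carry, was at 856, 819 and 855 CPM in the controls and 368, 345 and 358 CPM in the mutants. That is a fall with a log2 fold change, mutant over control, of -1.24 (edgeR adjusted p = 2.75e-06), and the count does not tell the alleles apart. The sample titles number 3 libraries for each group and do not say that each is 1 mouse. No litter, strain or day is named in the labels, so p-values measure the spread between these libraries.

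Mitochondrial genes differed in how much of their sequence has exact copies elsewhere, which bears on how their reads can be counted. The mouse nuclear genome carries old insertions of mitochondrial DNA, and the reference annotation (GENCODE M21, build GRCm38, later than the files' build mm9) lists 7 pseudogenes side by side at chr1:24611535-24616197, on the minus strand, that copy the stretch from mt-Co1 to mt-Nd4. Each member was cut into words of 50 bases, and a word was called copied where another gene's transcript held it exactly on either strand. The stretches shown are the opening 60 bases of 3 mitochondrial genes beside their copies, with capitals for bases that differ from the mitochondrial gene.
mt-Co2, chrM:7013-7072, plus strand: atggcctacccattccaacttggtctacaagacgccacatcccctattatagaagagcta
Gm28661, chr1:24615506-24615565, minus strand: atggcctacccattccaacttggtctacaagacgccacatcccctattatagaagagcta
Gm13341, chr2:22587903-22587962, minus strand: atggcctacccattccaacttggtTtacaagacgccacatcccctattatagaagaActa
mt-Nd3, chrM:9459-9518, plus strand: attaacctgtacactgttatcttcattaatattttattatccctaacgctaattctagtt
Gm28438, chr1:24613060-24613119, minus strand: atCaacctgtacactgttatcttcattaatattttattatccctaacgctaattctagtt
mt-Cytb, chrM:14145-14204, plus strand: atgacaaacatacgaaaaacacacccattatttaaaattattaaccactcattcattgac
Gm11410, chr4:80003989-80004048, plus strand: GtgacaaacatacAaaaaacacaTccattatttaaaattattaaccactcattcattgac
The copy of mt-Co2 on chromosome 1 had 0 differences in this stretch and was 100% identical over 681 bases. That of mt-Nd3 had 1 difference and was 99.71% identical over 345 bases. The pseudogene nearest to mt-Cytb had 3 differences in the stretch shown and was 92.91% identical over 1142 bases.

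Genes with nearly all words copied had few counts. For mt-Co2, mt-Atp6, mt-Co3, mt-Nd3 and mt-Nd4l, between 98% and 100% of words had an exact copy, and none of these genes exceeded 5.18 CPM in any library. By contrast mt-Nd1, mt-Nd6 and mt-Cytb had no copied word, and mt-Nd2 and mt-Nd5 had 8.19% and 7.61%. In mt-Co1 51.1% of the words were copied and in mt-Nd4 62.2%, which left 731 and 502 words without a copy. The short gene mt-Atp8, which overlaps mt-Atp6 on the mitochondrial genome, had no annotated copy and was at 0 in 5 libraries. It lies between mt-Co2 and mt-Atp6, and the 233 bases between the pseudogenes of those neighbours on chromosome 1 hold no annotated pseudogene. The share of reads that the count files list as not uniquely aligned was 5.06%, 5.33% and 5.79% in the controls and 6.25%, 6.17% and 6.52% in the mutants. Every mutant library therefore exceeded every control in that share. The files do not say which genes those reads came from.

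**Figure D1:**
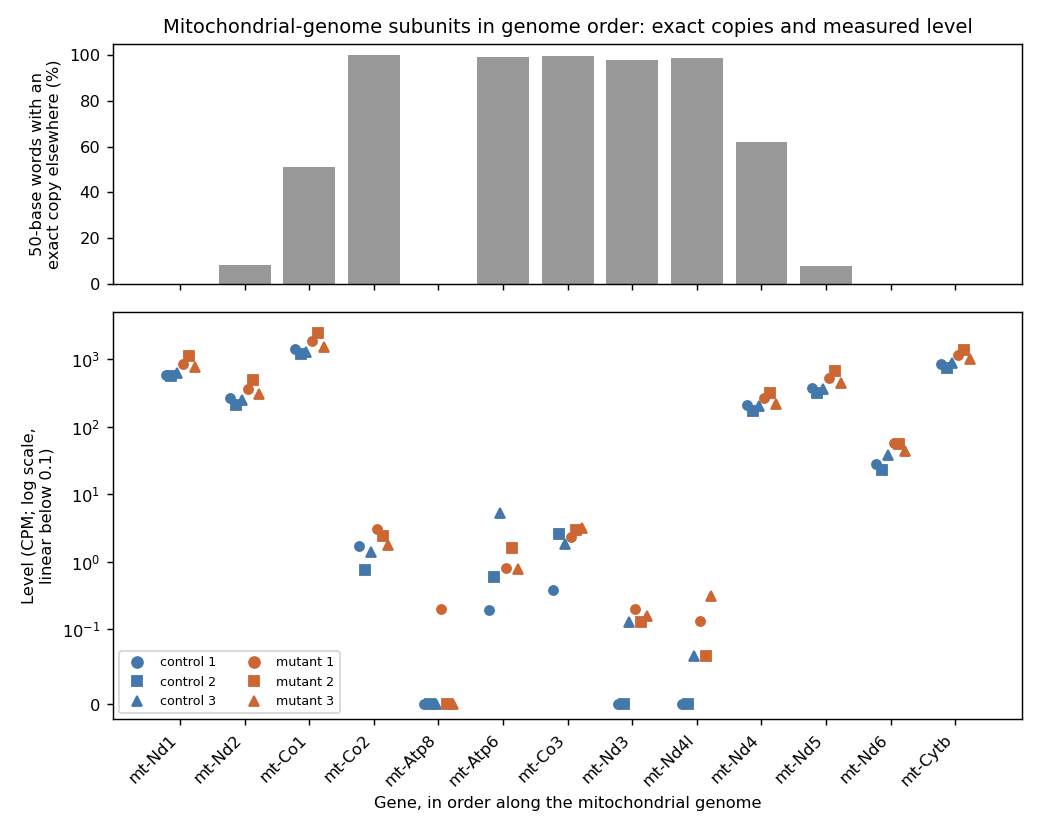
Upper panel: percent of 50-base words of each mitochondrial gene with an exact copy in another gene's transcript, as bars. Lower panel: level in each library in CPM on a log scale that is linear below 0.1, with genes in genome order. The 5 genes with 98% or more of their words copied stay at or below 5.18 CPM, as does mt-Atp8, while the 7 others lie between 22.97 and 2395 CPM.

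Levels of the mitochondrial genes were higher in the mutant libraries wherever they could be counted well. Of the 13 genes 10 passed the filter on low counts, 5 of these rose by edgeR's quasi-likelihood test (adjusted p under 0.05), none fell, and their median log2 fold change was 0.63. Over all 15035 genes tested, 8.63% were called higher and 9.13% lower, and the median was 0.01. At an unadjusted p under 0.05, 8 were higher and 0 lower, against 16.3% of all genes higher and 16.5% lower. DESeq2 called 7 higher and 0 lower, against 6.74% and 8.43% of all genes, and limma-voom also called 7 and 0, against 8.35% and 8.75%. In 8 of the 10 every mutant library lay above every control library, against 19.1% of all genes tested. The filter admits a gene through the group in which it is high, so these counts describe the tested genes only.

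Complex IV supplied the most abundant of them. Its catalytic subunit gene mt-Co1 (ENSMUSG00000064351) had 1388, 1180 and 1271 CPM in the controls and 1855, 2395 and 1504 CPM in the mutants. Mutant replicate 2 was highest and the groups did not overlap. The log2 fold change was 0.58 (95% interval 0.24 to 0.93, edgeR adjusted p = 0.0306). The call was lost in 6 of 16 alternatives, among them leaving out any 1 of the control libraries or mutant replicate 1, with adjusted p up to 0.128. For complex III, mt-Cytb (ENSMUSG00000064370), the cytochrome b that oxidises ubiquinol, had 839, 727 and 886 CPM against 1162, 1373 and 1011 CPM. All mutants exceeded all controls, and the log2 fold change was 0.53 (0.28 to 0.79, edgeR adjusted p = 0.0107). Its call was lost in 2 of 16 alternatives, both of them with a trend on transcript length removed.

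The complex I genes of the mitochondrial genome encode the membrane arm that pumps protons. Control libraries had 574, 553 and 630 CPM of mt-Nd1 (ENSMUSG00000064341) and mutants 841.7, 1118 and 751.5 CPM. The lowest mutant was again above the highest control, with a log2 fold change of 0.63 (0.32 to 0.93, edgeR adjusted p = 0.0127). For mt-Nd5 the values were 374, 316 and 362 CPM against 528, 664 and 447 CPM (log2 fold change 0.64, edgeR adjusted p = 0.0131). The order of the mutant libraries was the same, replicate 2 above 1 above 3. For mt-Nd2, not called, they were 261, 211 and 247 CPM against 355, 496 and 299 CPM (0.68, edgeR adjusted p = 0.0546), and for mt-Nd4, also not called, 210, 170 and 202 CPM against 266, 319 and 217 CPM (0.46, edgeR adjusted p = 0.053). Neither pair of groups overlapped. Both were called by DESeq2, limma-voom and upper-quartile scaling. Without control replicate 1, control replicate 3 or mutant replicate 1, 3 mitochondrial genes were called higher in place of 5. The shares of all genes called higher under these settings were 7.83%, 4.44% and 5.76%, against 8.63% with all libraries.

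The gene mt-Nd6, the only subunit gene read from the other strand, was the least abundant of the well-counted mitochondrial genes, with 27.7, 22.97 and 37.73 CPM in the controls and 56.4, 55.9 and 43.9 CPM in the mutants (log2 fold change 0.81, 0.38 to 1.25, edgeR adjusted p = 0.0242). The groups did not overlap, and the call was lost in 6 of 16 alternatives. How the counting treated strand was not given in the sources used here. Its reads therefore cannot be told apart from those of RNA of the opposite strand, and its end overlaps that of mt-Nd5 in the annotation.

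**Figure D2:**
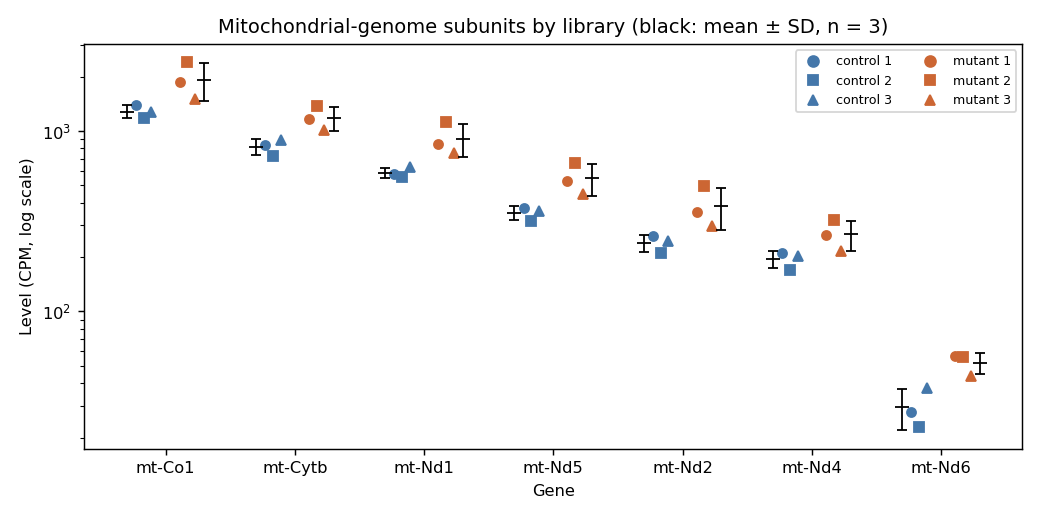
Level in CPM (log scale) of the 7 mitochondrial-genome subunits with at least 22.97 CPM in every library, by gene. Points are libraries, blue for control and orange for mutant, and black marks are mean ± SD of 3. In each gene the lowest mutant lies above the highest control, and mutant replicate 2 is highest in all but mt-Nd6.

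The remaining 6 mitochondrial genes rest on few reads. All but mt-Atp8 are also uncertain because of their annotated copies. For mt-Atp8 no copied word was found. The search covered annotated transcripts only, so it could not find a copy in sequence without annotation. For mt-Co2 the values were 1.73, 0.754 and 1.41 CPM against 3.01, 2.4 and 1.79 CPM (log2 fold change 0.85, edgeR adjusted p = 0.0874). For mt-Co3 they were 0.384, 2.6 and 1.85 CPM against 2.34, 2.99 and 3.16 CPM (0.86, adjusted p = 0.273). For mt-Atp6 they were 0.192, 0.587 and 5.18 CPM against 0.804, 1.62 and 0.791 CPM. Control replicate 3 alone set its negative log2 fold change of -0.94, which was 1.51 without that library. Counts were 0, 0 and 2 against 3, 2 and 3 for mt-Nd3, 0, 0 and 1 against 2, 1 and 6 for mt-Nd4l, and 0, 0 and 0 against 3, 0 and 0 for mt-Atp8. These 3 genes did not pass the filter. The pseudogene Gm10222, whose 294 bases are 100% identical to mt-Nd4l, is the 1 pseudogene of the 7 on chromosome 1 with a row in the count files. It had counts of 1, 4 and 1 in the controls and 19, 15 and 24 in the mutants (log2 fold change 3.00, edgeR adjusted p = 0.00378). Reads that lie within those bases cannot be told apart from reads of mt-Nd4l.

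RNAs of the mitochondrial ribosome were not called. The small ribosomal RNA mt-Rnr1, encoded next to mt-Rnr2 and mt-Nd1 on the heavy strand, had 134.7, 95.05 and 123.2 CPM in the controls and 116.1, 146.7 and 104.9 CPM in the mutants (log2 fold change 0.06, edgeR adjusted p = 0.842). For the large ribosomal RNA mt-Rnr2 the values were 197.6, 149 and 161.9 CPM against 211.3, 285.1 and 177.4 CPM (0.40, adjusted p = 0.203). The groups overlapped in each. The difference between these genes and the subunit genes was not tested, and both were chosen after the subunits' values were seen.

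Nuclear subunits showed smaller differences in the same direction. Of 64 genes 60 passed the filter, 15 rose, none fell, and the median log2 fold change was 0.19. At 25%, the share called higher stood against 8.63% of all genes tested. At an unadjusted p under 0.05, 27 were higher and 1 lower, beside the 16.3% and 16.5% of all genes given above. DESeq2 called 8 higher, or 13.3%, and 0 lower, beside 6.74% of all genes higher. A positive log2 fold change was found in 51 and a negative one in 9. All mutant libraries exceeded all controls in 31 of the 60, against 19.1% of all genes, and all lay below in 2, against 18.6%. The filter admits these genes too through the group in which they are high. Leaving out any 1 library other than control replicate 1 lowered the number of rises, and the share of all genes called higher too. Without control replicate 2 the number was 4 (6.67% of the 60, against 5.08% of all genes) and without control replicate 3 it was 7 (11.7% against 4.44%). It was 5 (8.33%) without mutant replicate 1, against 5.76% of all genes, and 5 without mutant replicate 3, against 4.33%. Without mutant replicate 2 it was 9 (15% against 6.3%). Ndufa6, Ndufs7 and Uqcrfs1 were among the rises in each case.

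Transcript length moved with this result. The median union exon length of the 60 tested nuclear subunits was 1372 bases, against 4342 bases over all genes tested with a length. Across all genes the shortest decile, up to 1582 bases, had a median log2 fold change of 0.15 with 11.8% called higher and 3.3% lower. In the longest decile, from 9802 bases, the median was -0.10 with 5.7% higher and 17.7% lower. The shortest decile held 34 nuclear subunits, with a median of 0.20 and 8 rises, and 9 of the 10 tested mitochondrial genes. With a smooth trend on length removed from each library, 5 nuclear subunits rose and 1 fell, and their median was 0.06. The 5 rises are 8.33% of the 60, close to the 8.27% of all genes called higher under this setting, with 8.1% called lower. The 5 rises were those of Ndufa6, Ndufb5, Ndufv3, Ndufs7 and Ndufb8. Under the same setting 1 mitochondrial gene, mt-Nd5, rose, and the mitochondrial median was 0.50. The part of length in the subunits' differences was not tested beyond these values.

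**Figure D3:**
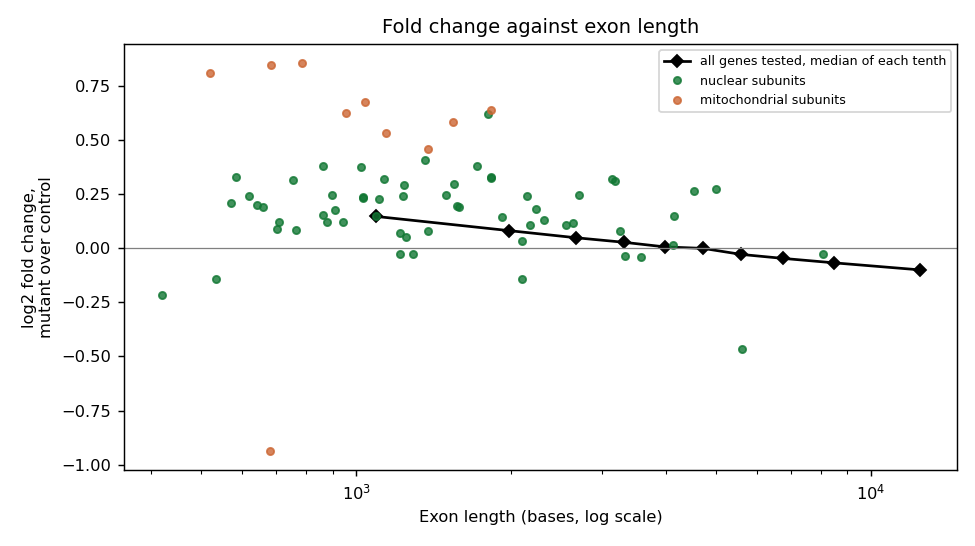
Log2 fold change, mutant over control, against union exon length in bases (log scale). Black diamonds are medians over all tested genes in deciles of length, placed at the median length of the decile, green points are nuclear subunits and orange points mitochondrial-genome subunits. The medians run from 0.15 in the shortest decile to -0.10 in the longest.

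Complex I, the NADH dehydrogenase, has the most nuclear members here, 35, all tested, of which 9 rose and none fell (median 0.20). The rises are 25.7% of them, against 8.63% of all genes tested called higher and 9.13% lower. Of its 7 nuclear core subunits, which hold the flavin and the iron-sulfur clusters, 1 rose (14.3%). Of its 28 accessory subunits, which surround the core, 8 rose (28.6%). The core share rests on 1 gene, and core and accessory subunits were not tested against each other. The core subunit gene Ndufs7 (ENSMUSG00000020153), for an iron-sulfur protein near the quinone site, had 28.2, 31.3 and 27.4 CPM in the controls and 37.71, 37.86 and 37.33 CPM in the mutants. The groups were clearly apart, with a log2 fold change of 0.38 (0.20 to 0.56, edgeR adjusted p = 0.0103). The call held in all 16 alternatives.

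Among the accessory subunits, Ndufa6 (ENSMUSG00000022450) had the lowest p of all members. Its values were 27, 25.8 and 31.5 CPM in the controls and 46.6, 40.2 and 42.9 CPM in the mutants. No library of 1 group came near the other, and the log2 fold change was 0.62 (0.41 to 0.83, edgeR adjusted p = 0.00185), between 0.52 and 0.71 over 16 alternatives with the call kept in each. Ndufa3 had 30.5, 31.2 and 25.8 CPM against 38.4, 36.2 and 38.8 CPM (log2 fold change 0.38), and Ndufs5 20.1, 17 and 14.45 CPM against 23, 21.6 and 22.6 CPM (0.38). Their edgeR adjusted p were 0.0162 and 0.048, and the calls were lost in 5 and 9 of 16 alternatives, for Ndufs5 also by DESeq2 (0.0789) and limma-voom (0.0505).

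The other rises of complex I were Ndufv3 (0.31), Ndufb8 (0.32), Ndufb5 (0.28), Ndufc2 (0.31) and Ndufa7 (0.33), with edgeR adjusted p between 0.0288 and 0.0449. None overlapped between groups, which is likely in genes picked by their call. Over all genes tested, every mutant lay above every control in 19.1%. Each of these 5 lost its call without mutant replicate 1 and without mutant replicate 2. For 2 accessory subunits every mutant lay below every control, without a call. Ndufb2 had 8.32, 8.21 and 7.55 CPM against 6.5, 4.74 and 6.17 CPM (-0.46, adjusted p = 0.067), and Ndufa1, whose gene lies on the X chromosome, had 28.6, 25.5 and 22.7 CPM against 22.4, 21.8 and 22 CPM (-0.21, adjusted p = 0.171). Ndufa1 was chosen after its values were seen, as was Ndufb2. With the length trend removed Ndufa1 was called lower (log2 fold change -0.42, edgeR adjusted p = 0.0124).

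Complex II, succinate dehydrogenase, also works in the tricarboxylic acid cycle and has no mitochondrial subunit. None of its 4 genes was called by edgeR, DESeq2 or limma-voom. Of these genes 2 were higher at an unadjusted p under 0.05, against 16.3% of all genes tested. The flavoprotein gene Sdha had 159, 143 and 147 CPM against 153, 153 and 149 CPM, with overlapping groups and a log2 fold change of 0.01 (-0.14 to 0.17). The membrane anchor gene Sdhd had 48.1, 49.8 and 51 CPM against 63.5, 57.5 and 55.3 CPM, without overlap (0.24, 0.07 to 0.42, edgeR adjusted p = 0.0534). The values were 0.18 for Sdhb, the iron-sulfur protein, and 0.08 for Sdhc, the other anchor, both chosen after their values were seen. The interval of Sdha leaves room for a rise of up to 0.17 on the log2 scale, close to the nuclear median.

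All 8 nuclear genes of complex III, the cytochrome bc1 complex, had a positive log2 fold change (median 0.25). Of these 4 rose, or 50%, against 8.63% of all genes tested. Uqcrfs1 (ENSMUSG00000038462), the Rieske iron-sulfur protein, had 38, 40.1 and 41.2 CPM in the controls and 49.4, 57.9 and 51.1 CPM in the mutants (0.41, 0.23 to 0.59, edgeR adjusted p = 0.00753). The groups did not overlap, and the call was lost in 1 alternative, the length trend removed (adjusted p = 0.0581). The hinge protein gene Uqcrh had 74.4, 71.5 and 79 CPM against 95.2, 88.25 and 92.2 CPM (0.29, edgeR adjusted p = 0.0185). Its call was lost in 5 of 16 alternatives, also with the length trend removed. The small subunit genes Uqcr10 (0.33, edgeR adjusted p = 0.0151) and Uqcrq (0.33, edgeR adjusted p = 0.0421) were called as well. The call of Uqcr10 was lost in 4 of 16 alternatives and that of Uqcrq in 9, among them DESeq2 (adjusted p = 0.0782) and limma-voom (0.0501). Neither of the large core proteins was called, with 0.15 for Uqcrc1 and 0.11 for Uqcrc2, both chosen after their values were seen.

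In complex IV, cytochrome c oxidase, 13 of 17 nuclear genes were tested, with Ndufa4 counted here since its protein is now assigned to this complex. Of the 13, 2 rose (median 0.12), or 15.4% against 8.63% of all genes tested, a share that rests on 2 genes. The regulatory subunit gene Cox4i1 (ENSMUSG00000031818) had 197, 188 and 174 CPM against 234, 228 and 224 CPM, groups well apart (log2 fold change 0.30, 0.14 to 0.46, edgeR adjusted p = 0.0171). Cox7c had 53.5, 51.3 and 56.4 CPM against 65.1, 66.3 and 69.9 CPM (0.32, edgeR adjusted p = 0.0137). The calls of Cox4i1 and Cox7c were lost in 5 and 4 of 16 alternatives, for each also with the length trend removed. The catalytic core of this complex is mitochondrial. Cox6c and Cox7b, also nuclear subunits, with log2 fold changes of -0.04 and -0.02, had overlapping groups, and both were chosen after their values were seen.

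Isoform genes of complex IV showed which version these cells transcribed. Cox6a1, Cox7a2 and Cox8a are the widespread forms, and Cox6a2, Cox7a1 and Cox8b are the forms of heart, skeletal muscle and, for the latter pair, brown fat. Per kilobase of exon, Cox6a1 had 135 ± 9.73 RPKM (the CPM divided by exon length) in controls and 144 ± 8.71 in mutants (SD, n = 3), Cox8a 115 ± 7.96 and 136 ± 9.11, and Cox7a2 45.8 ± 1.44 and 49.9 ± 3.52. The muscle form Cox6a2 had counts of 0, 0 and 1 in controls and 1, 2 and 3 in mutants, and Cox8b 1, 0 and 2 against 4, 8 and 4. Cox7a1 stood at 1.76 ± 0.678 and 1.61 ± 0.202 RPKM, with overlapping groups and an edgeR log2 fold change of -0.14 (-0.94 to 0.65). The widespread forms Cox6a1 (0.09), Cox7a2 (0.12) and Cox8a (0.24) were not called. Of the testis forms, Cox7b2 had 1 count in mutant replicate 1, 1 in mutant replicate 3 and 0 elsewhere. Cox8c had 0 in all 6 libraries, where 0 allows up to 0.16 to 0.252 CPM. Cox6b2, also a testis form, had 7.23, 5.87 and 4.99 CPM in controls and 7.3, 6.1 and 7.75 CPM in mutants. Its groups overlapped, and it was not called (log2 fold change 0.23, edgeR adjusted p = 0.404). The values of Cox6b2 were known when it was picked.

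The levels per length differed widely within each complex. In controls, Cox6a1 had the highest mean in complex IV, followed by Cox4i1 (120 ± 7.4 RPKM) and Cox8a. Cox4i1 did not differ beyond the spread from Cox6a1 or from Cox8a. Uqcrh (60.6 ± 3.07 RPKM) and Uqcr10 (54.7 ± 2.09) led complex III, Ndufa2 (67.9 ± 4.98) and Ndufb11 (61.7 ± 3.96) complex I, and Sdhd (40.3 ± 1.19) and Sdha (36.4 ± 2.03) complex II. Ndufb11 did not differ beyond the spread from Ndufa2 or from the next in complex I, Ndufa1 (61.1 ± 7.04 RPKM). Exon lengths include all annotated transcripts of a gene, so genes with long rare transcripts are set too low on this scale. On the same scale mt-Co1 had 828 ± 67.8 RPKM, mt-Cytb 714 ± 71.4 and mt-Nd1 612 ± 41.8 in controls, all above the nuclear members, while mt-Nd6 had 56.8 ± 14.5. With the CPM of the whole gene given per 1000 copy-free words, mt-Co1 had 1751 ± 142.6 CPM in controls and 2624 ± 614 in mutants. For mt-Nd4 the values were 386.9 ± 42.1 and 532.6 ± 101.3. This scale takes all counted reads to lie in copy-free words, which the counts do not show.

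**Figure D4:**
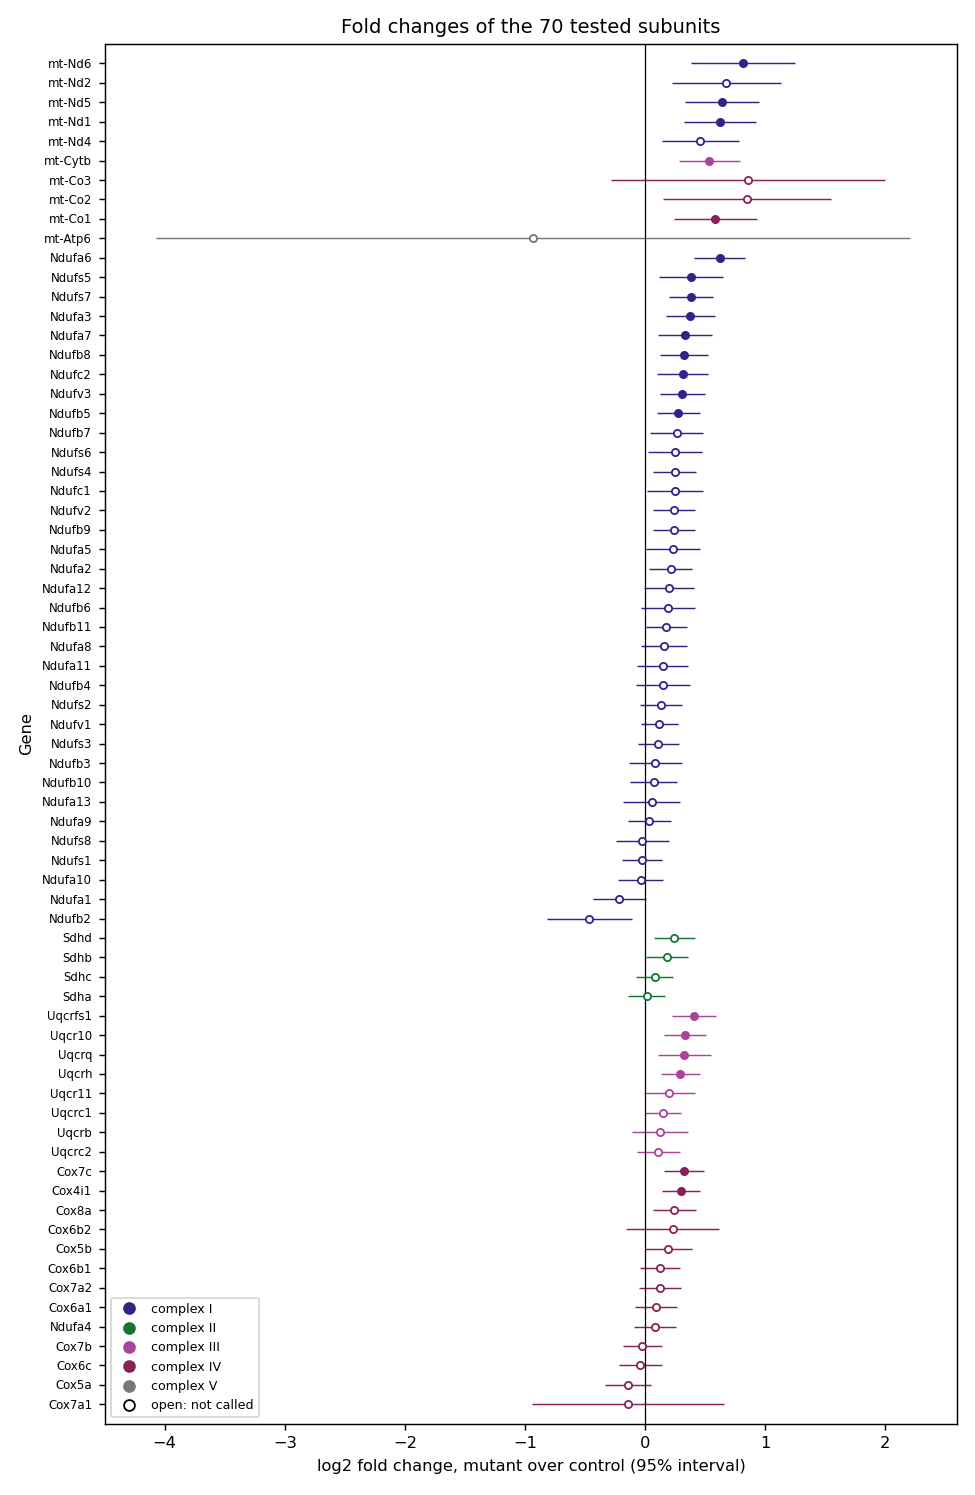
Log2 fold change, mutant over control, of the 70 tested subunits with 95% intervals, grouped by genome and complex. Filled points were called higher at an edgeR adjusted p under 0.05 and open points were not called. The called mitochondrial genes lie between 0.53 and 0.81 and the called nuclear genes between 0.28 and 0.62.

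Summed over members, the genomes differed in size of change and in spread. Mitochondrial subunits summed to 3677, 3184 and 3644 CPM in the controls and 5071, 6428 and 4280 CPM in the mutants, a ratio of means of 1.5. Nuclear subunits summed to 2962, 2791 and 2788 CPM against 3251, 3156 and 3136 CPM, a ratio of 1.12. The ratio of the mitochondrial to the nuclear sum was 1.24, 1.14 and 1.31 in the controls and 1.56, 2.04 and 1.36 in the mutants. No control reached the lowest mutant in any of these quantities, and no test was made of them. Mutant replicate 2 was highest in the mitochondrial sum and mutant replicate 1 in the nuclear sum. Among 10 tested mitochondrial genes 7 followed the order of mutant replicates 2, 1, 3, and among 60 nuclear genes 9 did. Without mutant replicate 2 the median log2 fold change of the mitochondrial genes was 0.45.

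**Figure D5:**
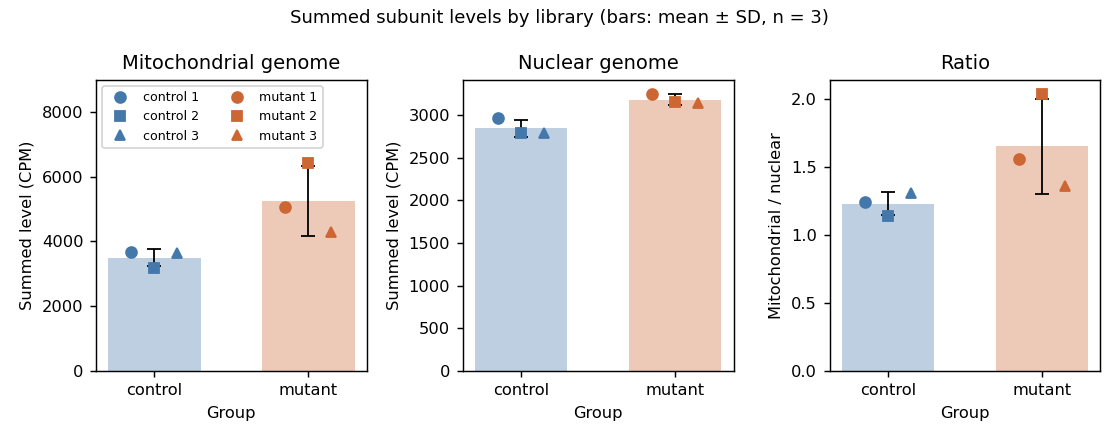
Summed level in CPM of the mitochondrial-genome and the nuclear subunits, and the ratio of these sums, by group. Points are libraries and bars are mean ± SD of 3. The mutants' mitochondrial sums spread from 4280 to 6428 CPM and their nuclear sums from 3136 to 3251 CPM.

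Markers of other cells moved with the groups too. Their counts stand beside the 8.63% of all genes tested called higher and 9.13% lower, and a list with 1 call rests on 1 gene. Of 10 skeletal muscle markers 8 rose and none fell, with Actc1 the most abundant (16.6, 27.1 and 24.7 CPM against 63.7, 70.8 and 98.3 CPM), and the list summed to 87.6 to 101 CPM in controls and 198 to 294 CPM in mutants. The other muscle rises were those of Acta1, Myog, Ttn, Ckm, Tnnt3, Myl1 and Cdh15. No muscle marker was at 0 in all libraries, and Ckm, the muscle creatine kinase, was the lowest called, at 0.192 to 1.34 CPM and 2.47 to 4.01 CPM. Of the muscle forms described above, Cox6a2 did not exceed 3 counts and Cox8b did not exceed 8. In CPM every mutant lay above every control in each, but both were below the filter and were not tested. Cox7a1 had overlapping groups. Endothelial markers rose in 4 of 7, with sums of 130 to 163 CPM and 231 to 320 CPM, and keratinocyte markers in 3 of 6, with sums of 332 to 591 CPM and 727 to 885 CPM. White fat markers rose in 1 of 7, Fabp4, with a median log2 fold change of 0.96. DESeq2 called 3 of them higher, against 6.74% of all genes. Mutant replicate 2 was the highest mutant in each of these 7, as in the mitochondrial sum. In the mutants Cfd had 10.9, 111 and 6.27 CPM and Adipoq 16.7, 61.7 and 9.28 CPM. Plin1 and Pparg had negative log2 fold changes, and these 4 genes were chosen after their values were seen. Mast cell markers rose in 3 of 5 with 1 fall, Kit, macrophage markers in 1 of 6 and mural cell markers in 2 of 8. Of 5 tested brown fat markers none was called by edgeR, DESeq2 or limma-voom. There was 1 lower at an unadjusted p under 0.05, against 16.5% of all genes. Ucp1, the uncoupling protein that defines brown fat, was at 0 in the controls and at 0, 0.195 and 0.264 CPM in the mutants. Of fibroblast markers 1 of 7 fell, Pdgfra. Of 2 tested erythroid markers none was called by edgeR. Both were higher at an unadjusted p under 0.05, against 16.3% of all genes. The part of these cells in the subunits' differences was not tested.

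Neighbouring mitochondrial pathways were listed from textbook membership, and their counts stand beside the 8.63% of all genes called higher and 9.13% lower. Of 17 tested nuclear genes of ATP synthase 2 rose and none fell (median log2 fold change 0.12), Atp5mj (0.40, edgeR adjusted p = 0.0199) and Atp5mg (0.26), both small membrane subunits. Their symbols in the reference are Atp5mpl and Atp5l. Of 20 genes of the tricarboxylic acid cycle and pyruvate dehydrogenase none was called by edgeR, DESeq2 or limma-voom (median -0.02). There were 2 higher and 3 lower at an unadjusted p under 0.05, against 16.3% and 16.5% of all genes. The list summed to 1700 to 1740 CPM in controls and 1660 to 1720 CPM in mutants. Its most abundant gene was Idh2, the mitochondrial NADP-dependent isocitrate dehydrogenase (0.04, adjusted p = 0.719). Of 17 genes of electron carriers and coenzyme Q synthesis 1 rose, Coq8a (0.94), and 2 fell, Coq10b (-0.89) and Coq3 (-0.55).

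Genes that build the complexes or copy and read the mitochondrial genome are read against the same shares. Of 15 assembly factors of complex I none was called by edgeR, DESeq2 or limma-voom (median 0.09). There was 1 higher at an unadjusted p under 0.05, against 16.3% of all genes. The most abundant was Acad9 (-0.13). Of 31 assembly factors of complexes II to V 2 rose, Cox16 (0.70) and Uqcc3 (0.52). Of 29 genes of mitochondrial DNA copying, transcription and RNA stability 1 rose, Hsd17b10 (0.25), a subunit of the mitochondrial RNase P, and the median was -0.04. Of 16 genes of membrane channels and import 2 rose, Timm23 (0.33), an inner membrane import channel, and Phb2 (0.29), a prohibitin.

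Among regulators of mitochondrial gene programmes 3 of 15 tested fell and none rose (median -0.14), against 9.13% of all genes called lower and 8.63% higher. DESeq2, limma-voom and the fit with the length trend removed also gave 3 falls and no rise, against 8.43%, 8.75% and 8.1% of all genes lower. At an unadjusted p under 0.05, 1 was higher and 5 lower, against 16.3% and 16.5% of all genes. The 3 called were Sirt1, a deacetylase (-0.55, edgeR adjusted p = 0.00382), Pprc1, a coactivator related to PGC-1 (-0.40), and Yy1 (-0.33, adjusted p = 0.0114). The coactivator gene Ppargc1a, a brown fat marker above, was chosen after its values were seen. It had 1.34, 1.68 and 2.05 CPM against 1.21, 2.4 and 1.74 CPM and overlapping groups.

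Promoters of the rising nuclear subunits were searched because their RNA moved in 1 direction. Promoter windows of 300 bases around the start, from RefSeq (build GRCm38.p6), were found for 13 of the 15 genes called higher (14 windows) and for 37 of the 45 tested but not called (38 windows). Each motif was sought on both strands. The NRF1 motif, read as GCGCA, any base and GCGC, was in 2 of 14 windows of called genes (14.3%) and in 26.3% of those not called, against 4.6% of all 32851 windows. The ETS motif CCGGAAG was in 7.14%, 26.3% and 8.86%, and the YY1 motif AAGATGGC in 21.4%, 10.5% and 2.75%. TATAAA was in 28.6%, 2.63% and 13.6%. The stretches shown hold 1 example of each of the NRF1, ETS and YY1 motifs among called genes, and Ndufa6, the member with the lowest p, whose stretch had no match. They run from 100 bases before the start to 30 after it, with motif letters in capitals, in Uqcrh as read on the opposite strand.
Ndufs5, chr4:123718157-123718286, minus strand: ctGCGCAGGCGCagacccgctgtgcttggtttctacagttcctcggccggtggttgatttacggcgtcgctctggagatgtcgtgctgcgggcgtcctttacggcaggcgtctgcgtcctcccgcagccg
Uqcrh, chr4:116075041-116075170, minus strand: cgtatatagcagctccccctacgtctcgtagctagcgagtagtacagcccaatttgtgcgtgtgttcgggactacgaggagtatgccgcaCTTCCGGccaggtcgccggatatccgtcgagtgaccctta
Ndufa3, chr7:3617273-3617402, plus strand: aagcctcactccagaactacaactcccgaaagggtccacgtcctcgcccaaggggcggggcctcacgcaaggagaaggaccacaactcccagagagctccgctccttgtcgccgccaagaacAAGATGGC
Ndufa6, chr15:82354262-82354391, minus strand: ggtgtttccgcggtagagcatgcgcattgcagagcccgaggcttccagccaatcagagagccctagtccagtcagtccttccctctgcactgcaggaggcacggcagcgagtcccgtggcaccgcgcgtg
A match describes letters in a window and is no evidence of binding. With 14 windows, 1 window is 7.14%, and the shares of called and not called genes were not tested against each other.

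Nuclear subunits had fewer copied words. Over the 60 tested genes the median share of copied words was 0.363% and the highest 43.4%, in Uqcrb, which has processed pseudogenes. Of the 12 genes over 20%, 2 were called, Cox7c (27.9%) and Ndufs5 (31.1%), whose values are therefore less certain. The search covered annotated transcripts only.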

How the data were processed

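RNA of sorted Nestin-GFP-positive cells was measured in 3 control and 3 mutant libraries. The authors deposited raw read counts per Ensembl gene on build mm9, and per the submitters' processing notes HTSeq 0.5.3, TopHat2 2.0.4 and cutadapt 1.1 were named with DESeq2 and FastQC, with no role or order. The strand setting was not given in the sources used here. Rows that name no gene (36.9% to 41.7% of reads) were left out. Symbols, gene types and exon lengths came from GENCODE M21 (build GRCm38), which named 32919 of 37991 rows, holding 99.3% of counts. Counts were tested with edgeR 4.0.16 (R 4.3.3), using TMM scaling, filterByExpr (minimum count 10), the robust quasi-likelihood test and Benjamini-Hochberg adjustment over all genes tested, with a call at adjusted p under 0.05. CPM values were computed on TMM-scaled library sizes. DESeq2 1.42.0 and limma-voom 3.58.1, other scalings, no filter, a replicate block, removal of trends on length or GC, and leaving out each library were alternatives. The GC trend and a restriction to members with at most 50% copied words were chosen after seeing the data. Copies were sought as 50-base words, with BLAST+ 2.17.0 for identity. Genes named are all mitochondrial members, nuclear members called, the most abundant 2 per complex, isoform pairs, up to 3 called members, or else the most abundant, of each pathway list, and the most abundant and any called member of a marker list set beside a result. Others are marked as chosen after their values were seen. Members and lists were chosen with earlier results of these data known.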

Additional observations from a re-analysis of the deposited data

Results flagged for a closer look

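Reads that the count files set aside as not uniquely aligned, which enter no comparison of genes, made up 6.31% of reads on average in the mutants and 5.39% in the controls. Each of the 3 mutant libraries (6.25%, 6.17% and 6.52%) lay above each control (5.06%, 5.33% and 5.79%). The genes these reads came from are not given in the files.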

How the results depend on the processing

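Under DESeq2's Wald test 8 nuclear subunits were higher in place of 15, all 8 shared with the 15, beside 6.74% of all genes. With the length trend removed, 1 mitochondrial and 5 nuclear subunits were higher and 1 nuclear subunit lower, with a nuclear median of 0.0629, beside 8.27% of all genes higher. With the replicate block and the length trend removed together, 0 mitochondrial and 5 nuclear subunits were higher and 1 nuclear lower, with a nuclear median of 0.0654, beside 8.03% of all genes higher. The fit with the replicate block alone called 4 mitochondrial and 15 nuclear subunits higher, and over all genes 1328 higher and 1439 lower. The numbers are not said to mark a shared litter, day or animal, so they were not taken as pairs. Same-numbered libraries had correlations of deviations of 0.127, -0.0126 and -0.114. Taken from the means of only 3 libraries per group, these cannot decide whether the libraries are paired. Leaving out 1 library at a time gave 658 to 1199 genes higher and 753 to 1500 lower, 3 to 7 mitochondrial and 4 to 15 nuclear subunits higher, and a nuclear median of 0.14 to 0.21. The log2 fold change turned its sign for mt-Atp6 under limma-voom (0.16) and without control replicate 3 (1.51, against -1.5064 without control replicate 1), for Cox6a1 with the length trend removed (-0.0950), with block and length (-0.0944) and with the GC trend removed (-0.0282), for Cox7a2 in both length settings (-0.0407 and -0.0408), for Cox7a1 without control replicate 1 (0.22, against -0.3736 without control replicate 3), and for Sdha, at most 0.0486 (without control replicate 1), without control replicate 2 (-0.0207), control replicate 3 (-0.0013) or mutant replicate 1 (-0.0019). None of these genes was called, and the cause was not tested. The floor of 3 counts, 0.16 to 0.252 CPM, limits the 7 members below the filter.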
